A study of Arabidopsis thaliana with 7 samples.

Results

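PAP85 (AT3G22640) and OLEO3 (AT5G51210) are genes of the reserves that an Arabidopsis thaliana seed lays down for the seedling, and they are described here in developing seeds of the myb5 mutant and of wild type. They were chosen from these same arrays as maturation genes that differ strongly between arrays of 1 genotype, so their spread within a genotype is given as a description, without a test. Each has 1 probe set naming it alone, 258327_at for PAP85 and 248435_at for OLEO3, which makes 2 probe sets of 22810 in all. The study put RNA from dissected seeds on Affymetrix arrays, 1 array per sample. The myb5 group has 3 samples from plants with the myb5-1 allele, and the wild-type group has 4 samples from Columbia (Col) plants grown at the same time. Both groups grew on soil in constant light, and their seeds were taken between the globular and walking-stick stages of the embryo. A sample is whole seeds, so embryo, endosperm and seed coat are measured together, and fewer cells of a type cannot be told apart from less RNA per cell. The labels used here do not say how many plants a sample pools or what kind of mutation myb5-1 is. MYB5 itself was not analysed here.

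PAP85 encodes a vicilin-like protein, a member of the cupin superfamily to which the 7S and 12S seed globulins belong. Such globulins are made on the endoplasmic reticulum, move to protein storage vacuoles, are cut there by proteases and serve as nitrogen stores for germination. OLEO3 encodes an oleosin, a small protein with a long hydrophobic hairpin that sits in the surface of oil bodies and keeps these droplets of triacylglycerol from fusing. Genes of both kinds are known as targets of the seed maturation network of LEC1, LEC2, FUS3, ABI3 and bZIP transcription factors, and in Arabidopsis they are switched on as the embryo passes from pattern formation to filling.

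The 7 arrays did not fall apart by genotype. A first principal component with 56.8% of the variance of the normalized log2 values set myb5 replicate 1 with wild-type replicates 1 and 2 against the other 4 arrays. Array-to-array correlations over probe sets, which are not independent of each other, were 0.974 to 0.985 inside these sets and 0.933 to 0.963 between them. Of 6 control pairs that probe both ends of a transcript, 1 moved the same way. For this GAPDH pair the signal of the 5′ end over that of the 3′ end was 0.156 to 0.208 on the 3 arrays and 0.081 to 0.093 on the other 4, and its part in the values below was not tested. The labels used here name no batch. The arrays carry no detection calls, and 29.2% to 32.4% of the probe sets of an array had an intensity under 16.

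PAP85 was bright on 3 arrays and dim on 4, and both kinds of array occurred in each genotype. In myb5 seeds its deposited intensity was 981 in replicate 1, 21.9 in replicate 2 and 18.2 in replicate 3. In wild-type seeds it was 376 in replicate 1, 1979 in replicate 2, 13.8 in replicate 3 and 15.5 in replicate 4. The bright myb5 array lies between the 2 bright wild-type arrays, and the 2 dim myb5 arrays lie just above the 2 dim wild-type arrays. From highest to lowest the arrays ran wild-type replicate 2, myb5 replicate 1, wild-type replicate 1, myb5 replicates 2 and 3, and wild-type replicates 4 and 3. No sample was measured more than once, so it cannot be said whether neighbours in this order differ beyond the error of an array. The highest array was 143 times as bright as the lowest, and 53.8-fold separated the highest and lowest myb5 arrays. The 4 dim values lie near the constant of 16 that was added before taking logarithms, and for them no limit of detection is stated.

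OLEO3 was bright on every array and followed the same split with a smaller contrast. Its intensity was 4435 in myb5 replicate 1, 1225 in myb5 replicate 2 and 609.6 in myb5 replicate 3. In wild type it was 4699 in replicate 1, 5364 in replicate 2, 821.8 in replicate 3 and 1469 in replicate 4. The genotypes overlap again, with 1 myb5 array among the high values and the dimmest array also from myb5. The highest array was 8.80 times as bright as the lowest. The range of OLEO3 on the normalized log2 scale was 3.04, against 5.91 for PAP85 and a median of 0.67 over 22746 probe sets. By this range PAP85 stood at rank 19 and OLEO3 at rank 177. These ranks describe what the genes were picked for.

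**Figure D1:**
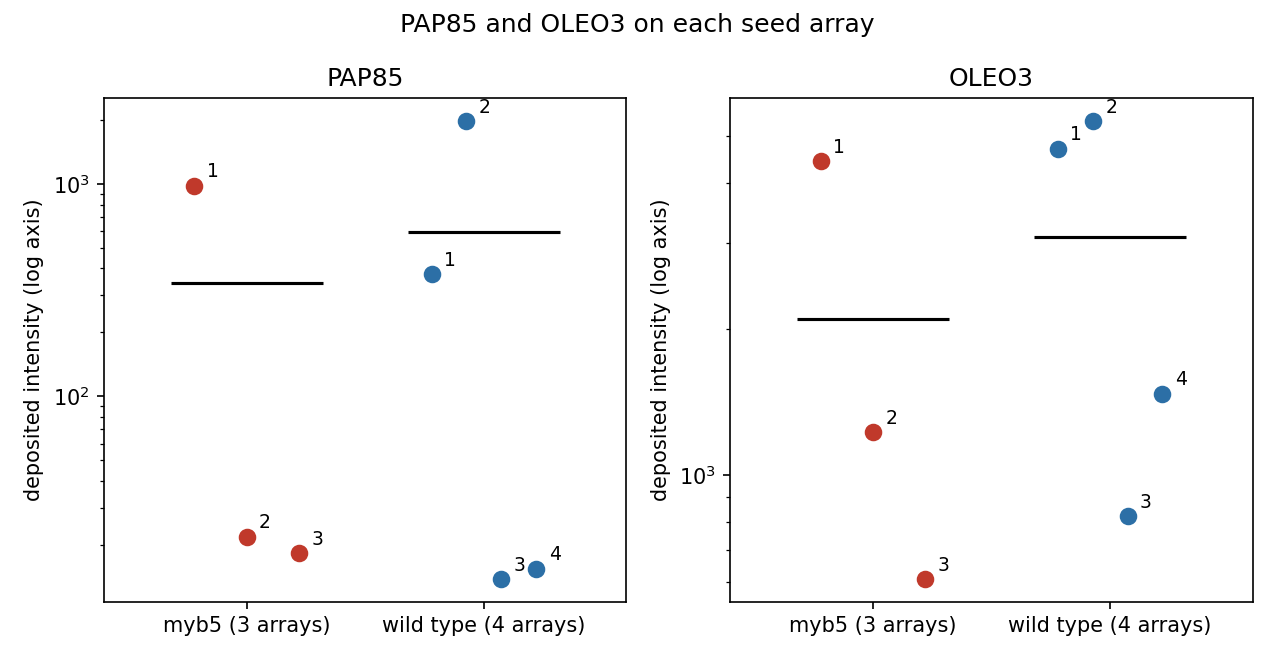
Deposited intensity (vertical log axis) of PAP85 (left) and OLEO3 (right) on the 3 myb5 arrays and the 4 wild-type arrays. Each point is 1 array with its replicate number, and the bar is the arithmetic mean of the group. For both genes myb5 replicate 1 and wild-type replicates 1 and 2 are the 3 highest arrays, so the genotypes overlap.

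Among the 3 arrays on which both are highest, PAP85 was graded and OLEO3 was nearly level. Wild-type replicate 2 exceeded wild-type replicate 1 by 2.23 on the normalized log2 scale for PAP85, while for OLEO3 the same difference was -0.07. Between myb5 replicate 1 and wild-type replicate 1 the difference was 1.34 for PAP85 and -0.18 for OLEO3. Among the other 4 arrays OLEO3 still varied. Myb5 replicate 2 exceeded myb5 replicate 3 by 1.01 for OLEO3 and by 0.12 for PAP85. Wild-type replicate 4 exceeded wild-type replicate 3 by 0.85 for OLEO3 and by 0.12 for PAP85. On these 4 arrays PAP85 lay around the added constant of 16, which compresses its differences, so they do not show that it was level there. Each of these is a difference between 2 single arrays with no error of its own. The median over all probe sets lay between -0.0053 and 0.0041 in these 4 pairs. The order of wild-type replicates 1 and 2 for OLEO3 is not settled, because replicate 2 was the higher as deposited and replicate 1 the higher after normalization.

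Neither gene passed the test between genotypes. PAP85 averaged 340 ± 555 in myb5 and 596 ± 938 in wild type (SD, n = 3 and n = 4 arrays). Its log2 difference, myb5 minus wild type, was -0.63 (standard error 1.78), with a 95% interval from -4.79 to 3.54 (limma adjusted p = 1.00). OLEO3 averaged 2090 ± 2054 in myb5 and 3088 ± 2275 in wild type (SD, n = 3 and n = 4 arrays). Its log2 difference was -0.63 (standard error 0.86), with a 95% interval from -2.63 to 1.37 (limma adjusted p = 1.00). The exact two-sided permutation p over the 35 splits of the arrays was 0.83 for PAP85 and 0.51 for OLEO3, where 0.0286 is the smallest possible. Over all probe sets the test called 1 of 22746, or 0.00440%, and 0 of the 2 genes is read against that share. Genes picked for their spread inside a genotype have wide intervals by construction, and these take in large changes either way.

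The direction of the PAP85 difference hung on which arrays were included, while that of OLEO3 turned in 1 of 18 alternatives. For PAP85 the log2 difference turned to 0.15 without myb5 replicate 2, to 0.21 without myb5 replicate 3 and to 0.53 without wild-type replicate 2. It moved to -2.24 without myb5 replicate 1, where no myb5 array is bright. For OLEO3 it was 0.017 (standard error 0.90) without myb5 replicate 3 and -1.41 without myb5 replicate 1. Among myb5 replicates 2 and 3 with wild-type replicates 3 and 4 alone, the log2 difference was 0.13 (standard error 0.15) for PAP85 and -0.32 (standard error 0.44) for OLEO3. Among the remaining 3 arrays it was 0.24 for PAP85 and -0.13 for OLEO3, where the spread comes from the wild-type arrays alone and is taken to hold for the single myb5 array too. None of these fits called either gene (limma adjusted p from 0.69 to 1.00).

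Vicilin-like genes were listed from general knowledge of the family, and all 4 had a probe set naming 1 gene, PAP85 included. The other 3 had the same 3 highest arrays as PAP85, a pattern held by 11.6% of all probe sets. AT2G28490 followed PAP85 most closely. Its intensity was 1707, 36.8 and 22.6 in myb5 replicates 1 to 3, against 698, 3304, 16.2 and 10.002 in wild-type replicates 1 to 4. Like PAP85, it was highest in wild-type replicate 2, next in myb5 replicate 1 and then in wild-type replicate 1, an order shared by 2.27% of all probe sets. AT4G36700 looked more like OLEO3, with 3924, 781 and 290 in myb5 replicates 1 to 3, against 3730, 2743, 294 and 899 in wild-type replicates 1 to 4. It was highest in myb5 replicate 1 and differed between the dim arrays, by 1.57 on the log2 scale between wild-type replicates 4 and 3. AT2G18540 stayed low, between 3.48 and 83.1. In the genotype test 0 of 4 vicilin-like genes were called higher and 0 lower, where 0.00440% of all probe sets were called. At that share a count of 0 is no result about this list or those below. The median log2 difference was -0.42, against -0.00035 over all probe sets. The 3 highest arrays hold 1 of 3 myb5 arrays but 2 of 4 wild-type arrays. A gene with this split therefore gets a negative difference even if the genotypes are equal within each set of arrays. The medians of the lists below carry the same limit.

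The 12S cruciferin list had 1 measured member of 4, AT1G03890. Its intensity was 213, 9.49 and 9.22 in myb5 replicates 1 to 3, against 2.31, 1325, 2.29 and 14.0 in wild-type replicates 1 to 4. It thus departed from PAP85 in wild-type replicate 1, where PAP85 was at 376 and this gene among its own dimmest arrays. The difference between wild-type replicates 2 and 1, 6.11 on the log2 scale, was the highest of all 22746 probe sets for that pair of arrays. The 2S albumin list had 0 measured members of 5 and the seed oil synthesis list 0 of 17.

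Of 8 seed oleosins listed, 4 were measured, and the 3 besides OLEO3 shared its 3 highest arrays. On the normalized log2 scale all 3 were highest in wild-type replicate 2, next in myb5 replicate 1 and then in wild-type replicate 1, the order of PAP85, though the steps differed in size. AT3G01570 was nearly level between myb5 replicate 1 and wild-type replicate 1, at a difference of 0.025. AT3G01570 had intensities of 2025, 154 and 77.2 in myb5 replicates 1 to 3, against 1979, 2924, 52.0 and 104 in wild-type replicates 1 to 4. AT3G18570 had 240, 29.6 and 18.2 in myb5, against 144, 731, 15.8 and 38.9 in wild type. AT2G25890 ranged from 2.65 to 79.2. The excess of wild-type replicate 2 over replicate 1 was 0.38, 2.16 and 1.28 on the log2 scale for these genes in turn. All 3 also exceeded in myb5 replicate 2 their level in replicate 3, as OLEO3 did. Between genotypes 0 of 4 oleosins were called higher and 0 lower, against 0.00440% of all probe sets, with a median log2 difference of -0.58.

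**Figure D2:**
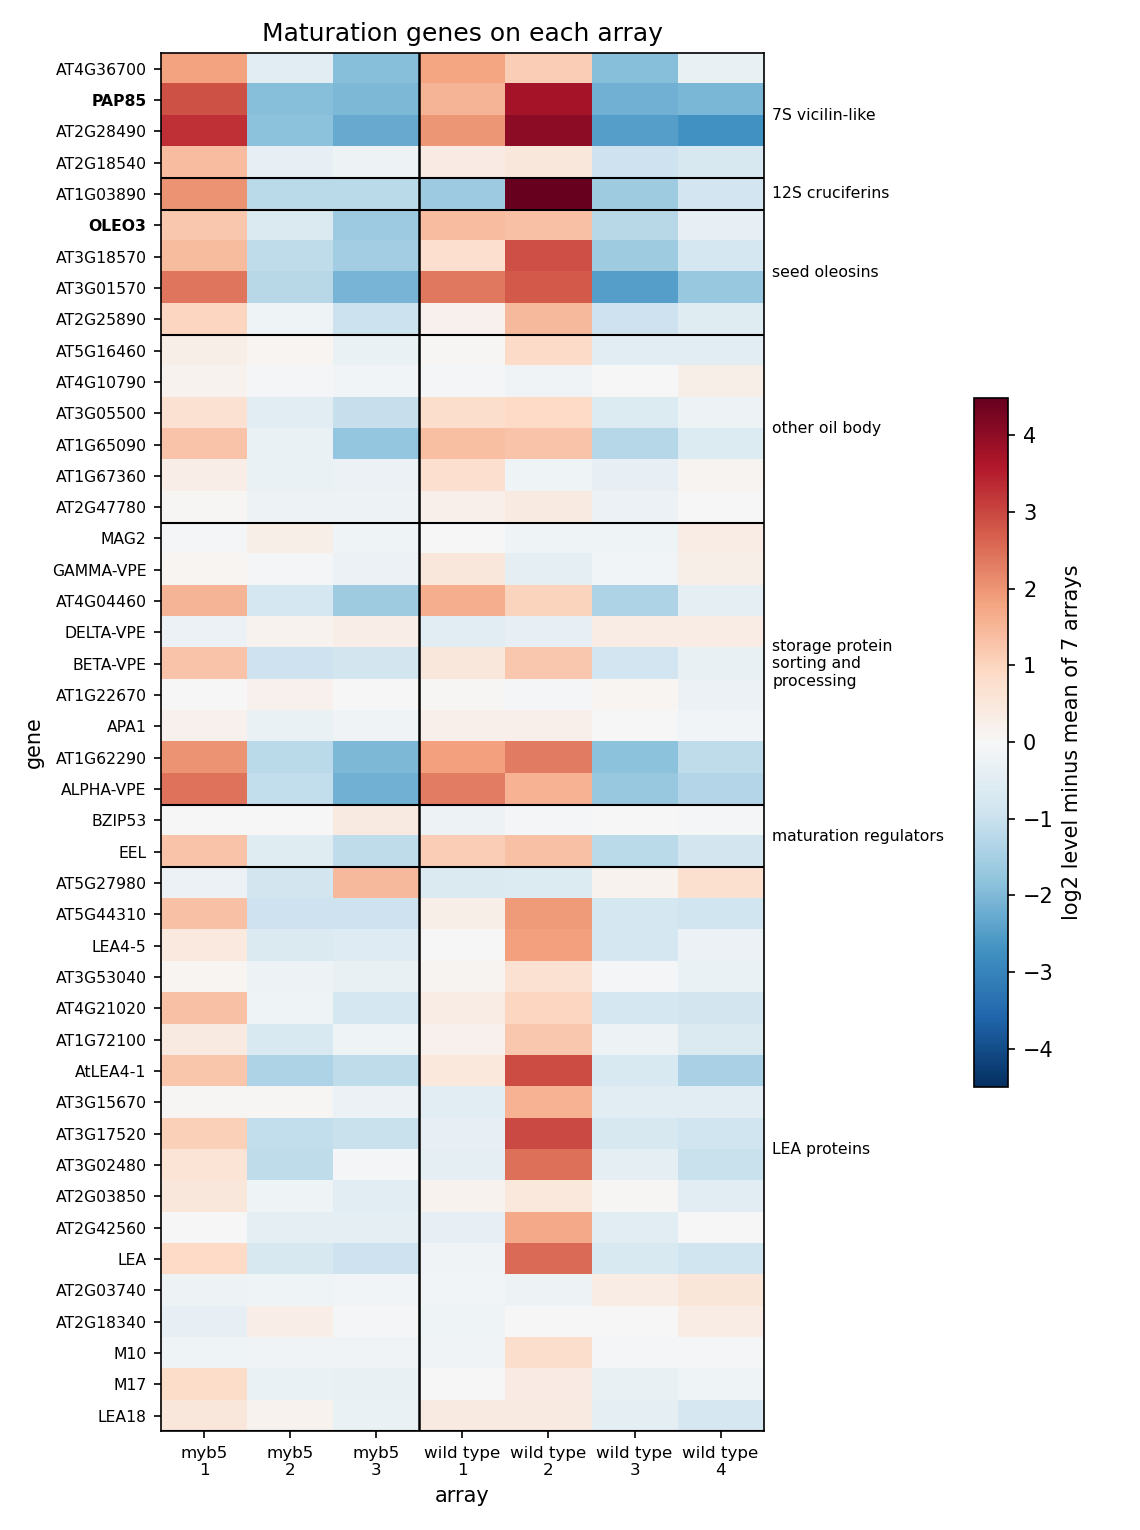
Normalized log2 level of each measured maturation gene minus its own mean over 7 arrays (colour), with 1 row per gene and 1 column per array, myb5 left of the line and wild type right of it. Red in myb5 replicate 1 and in wild-type replicates 1 and 2 marks genes with the split of PAP85 and OLEO3 (names in bold). AT1G03890 and several LEA genes are red mainly in wild-type replicate 2.

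Proteins that share the oil body surface or shape it with the oleosins had 6 measured members of 19. Of these, 3 had the same 3 highest arrays as OLEO3, against 11.6% of all probe sets. The 3 include AT2G47780, which stayed between 14.8 and 32.3 with a log2 range of 0.65. AT1G65090, listed for a seed lipid droplet protein, had 573, 187 and 59.3 in myb5 replicates 1 to 3, against 609, 584, 84.4 and 149 in wild-type replicates 1 to 4. Like OLEO3, it was nearly level between wild-type replicates 2 and 1, at a log2 difference of -0.06. AT3G05500, listed for a lipid droplet-associated protein, ranged from 645 to 2879. AT1G67360, also listed for a lipid droplet-associated protein, had a log2 range of 1.12, and AT5G16460, listed for a seipin, one of 1.32. Of the 6 measured genes 0 were called higher and 0 lower in the genotype test, against 0.00440% of all probe sets. Their median log2 difference was -0.20.

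Genes that sort or cut storage proteins had 9 measured members of 16, and 5 had the same 3 highest arrays, against 11.6% of all probe sets. The 5 include APA1, whose log2 range of 0.50 was under the median of 0.67 over all probe sets. ALPHA-VPE, a vacuolar processing enzyme, had 1416, 109 and 43.1 in myb5 replicates 1 to 3, against 1281, 761, 62.0 and 88.5 in wild-type replicates 1 to 4. BETA-VPE, the processing enzyme known for cutting seed globulins, ranged from 150 to 728. AT1G62290 and AT4G04460, both listed for aspartic proteases of the vacuole, had log2 ranges of 4.32 and 3.23. DELTA-VPE, known from the inner seed coat and named here after its values were seen, went the other way and was lowest on those 3 arrays, at 4425 to 5481, against 7693 to 8977 on the other 4. Between genotypes 0 of these 9 were called higher and 0 lower, against 0.00440% of all probe sets, with a median log2 difference of -0.16.

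Of 18 maturation regulators, 2 were measured. EEL, a bZIP factor named for its action on the LEA gene EM1, had 202, 48.3 and 25.7 in myb5 replicates 1 to 3, against 177, 199, 22.1 and 33.5 in wild-type replicates 1 to 4. BZIP53, a bZIP factor that acts on storage protein promoters, ranged from 754 to 1137, and its lowest array was wild-type replicate 1, on which PAP85 and OLEO3 were both bright. In the genotype test 0 of 2 were called higher and 0 lower, against 0.00440% of all probe sets.

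LEA proteins accumulate late in maturation and are linked to desiccation. They had 18 measured members of 28, and 11 had the same 3 highest arrays, against 11.6% of all probe sets. In wild-type replicate 2, where PAP85 peaked, 17 of 18 were higher than in wild-type replicate 1, against 49.6% of all probe sets, with a median log2 difference of 0.99. AtLEA4-1 had 94.3, 2.01 and 5.52 in myb5 replicates 1 to 3, against 47.0, 334, 12.006 and 0.836 in wild-type replicates 1 to 4. AT3G17520 had 68.8, 3.002 and 4.56 in myb5, against 14.1, 290, 7.66 and 4.95 in wild type. AT3G02480 and LEA reached 190 and 178 in wild-type replicate 2. In the genotype test 0 of 18 were called higher and 0 lower, against 0.00440% of all probe sets, with a median log2 difference of -0.30.

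**Figure D3:**
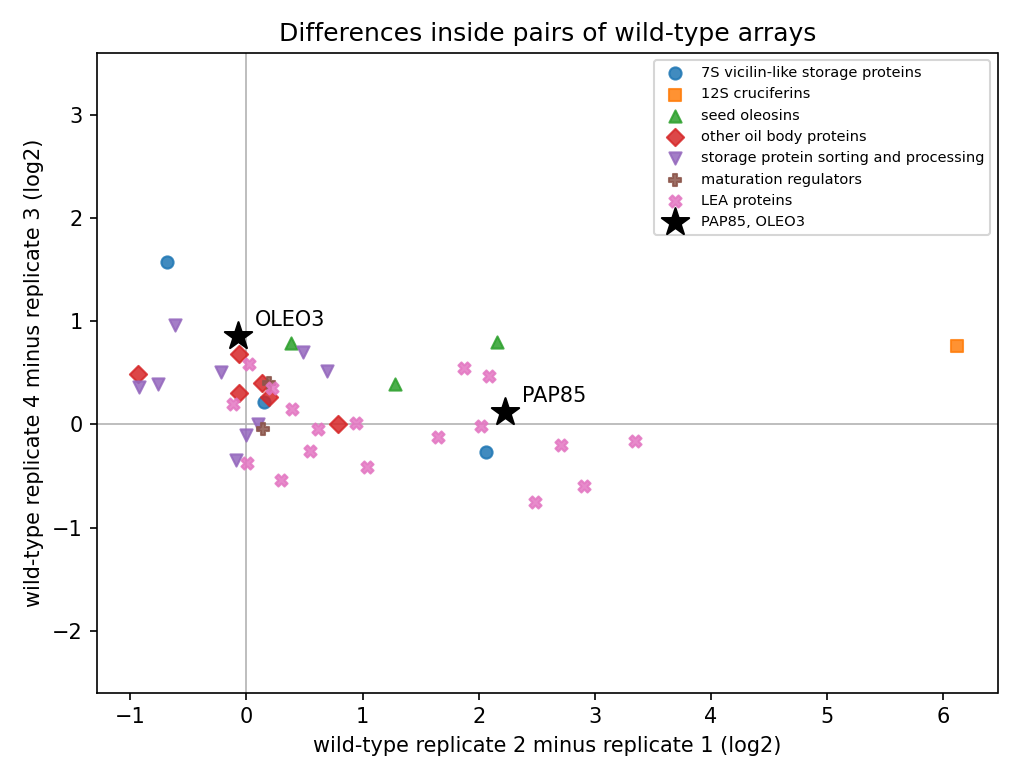
Difference in normalized log2 level between wild-type replicates 2 and 1 (horizontal axis) and between wild-type replicates 4 and 3 (vertical axis) for the measured maturation genes, 1 point per gene, with PAP85 and OLEO3 as stars. PAP85 lies to the right at 2.23 and 0.12, among LEA genes, and OLEO3 lies at -0.07 and 0.85, beside AT1G65090 of the oil body list at -0.06 and 0.68.

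Counted over these 7 lists, 26 of the 42 measured genes other than PAP85 and OLEO3 had the same 3 highest arrays, against 11.6% of all probe sets, and 12 of 42 had them in the order of PAP85, against 2.27%. The lists were drawn up with the split of the arrays known, so these counts describe the genes and test nothing. They take in genes that were dim or nearly flat. In the genotype test 0 of the 54 measured genes of all lists passed, against 0.00440% of all probe sets. Of these genes 0 had an unadjusted limma p under 0.05, against 3.46% of all probe sets. Among 54 genes a count of 0 is near that share, and genes with the split of the arrays have wide intervals. The count is therefore no result about the lists.

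**Figure D4:**
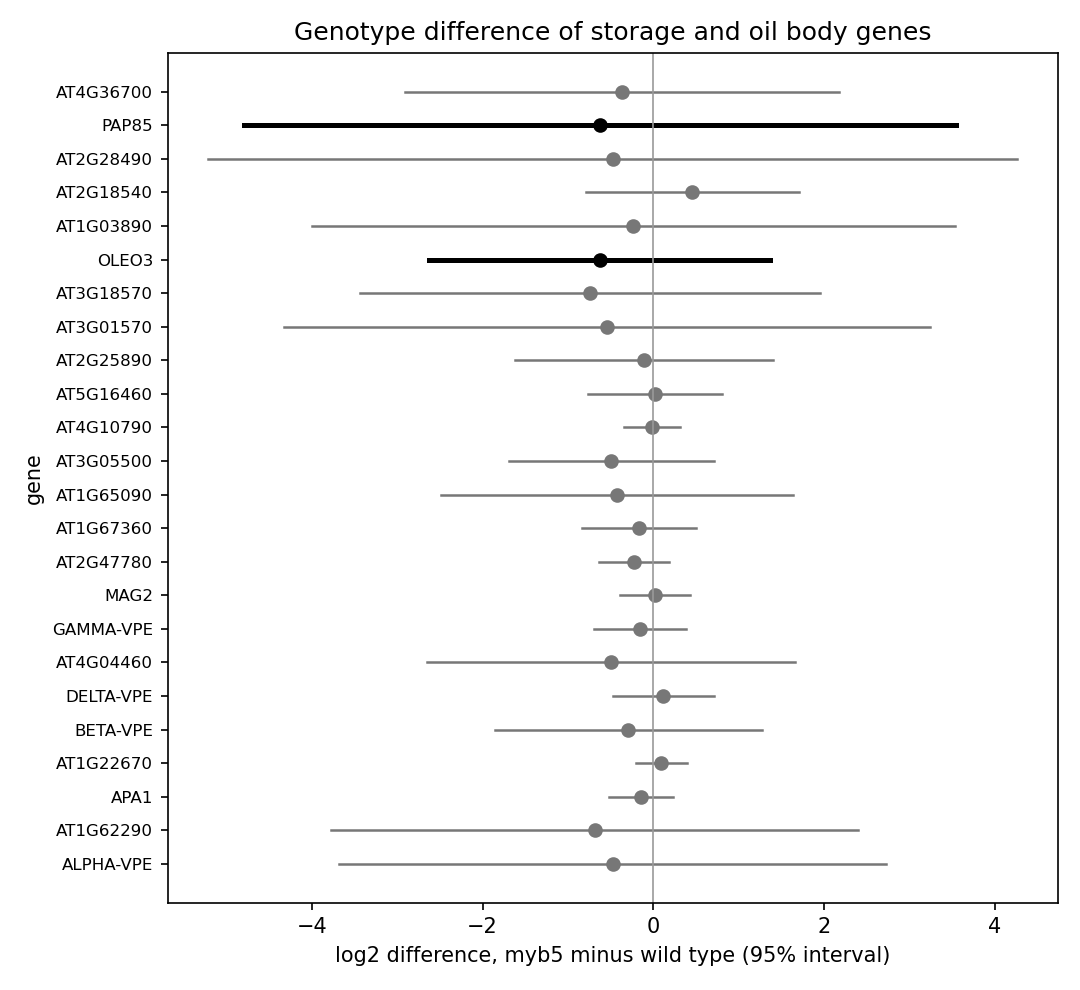
Log2 difference between genotypes, myb5 minus wild type, for the measured storage protein, oil body and storage protein processing genes, with the 95% interval of the limma fit (PAP85 and OLEO3 in black). Every interval drawn includes 0, PAP85 spanning -4.79 to 3.54 and OLEO3 -2.63 to 1.37.

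Over all 7 arrays, likeness to each gene was measured as the root mean square distance between log2 profiles, each centred on its own mean, among 13512 other probe sets naming 1 gene. The arrays share their scaling and fall into sets, so a short distance describes these arrays. Nearest to PAP85 was AT2G28490, the vicilin-like gene above, at 0.39, followed by AT1G54860 at 0.58, AT1G62500 at 0.59 and the oleosin AT3G01570 at 0.61. AOP3, a dioxygenase of glucosinolate side-chain modification, lay at 0.62, AT3G63040 at 0.64 and AT5G01300 at 0.71. The aspartic protease AT1G62290 at 0.78, ATOEP16-2, a protein of the plastid outer envelope, at 0.81 and AT1G04560 at 0.92 completed the 10. The median over all candidates was 2.45.

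OLEO3 had closer neighbours. AT1G65090 of the oil body list lay at 0.16, PDF2.1, a defensin gene, at 0.20 and the aspartic protease AT4G04460 at 0.20. They were followed by AT3G22540 at 0.22, AT3G11180 at 0.26 and SDT, a spermidine acyltransferase, at 0.27. EEL at 0.27, AT1G06000 at 0.29, UGT84A3, a glucosyltransferase, at 0.29 and AT3G54940 at 0.32 completed the 10. The median over all candidates was 1.22, lower than for PAP85 because a flat profile lies nearer to a gene of smaller range. The distance between PAP85 and OLEO3 was 1.42, which placed OLEO3 at rank 45 among the candidates for PAP85 and PAP85 at rank 12030 among those for OLEO3. The measure depends on range as well as shape, and the lists of 10 had 0 genes in common. The log2 differences between genotypes ran from -0.97 to -0.26 among the neighbours of PAP85 and from -0.73 to -0.21 among those of OLEO3 (limma adjusted p = 1.00 for each). Neighbours were picked on these same values, so their differences were bound to lie near that of PAP85 or OLEO3 and test nothing.

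**Figure D5:**
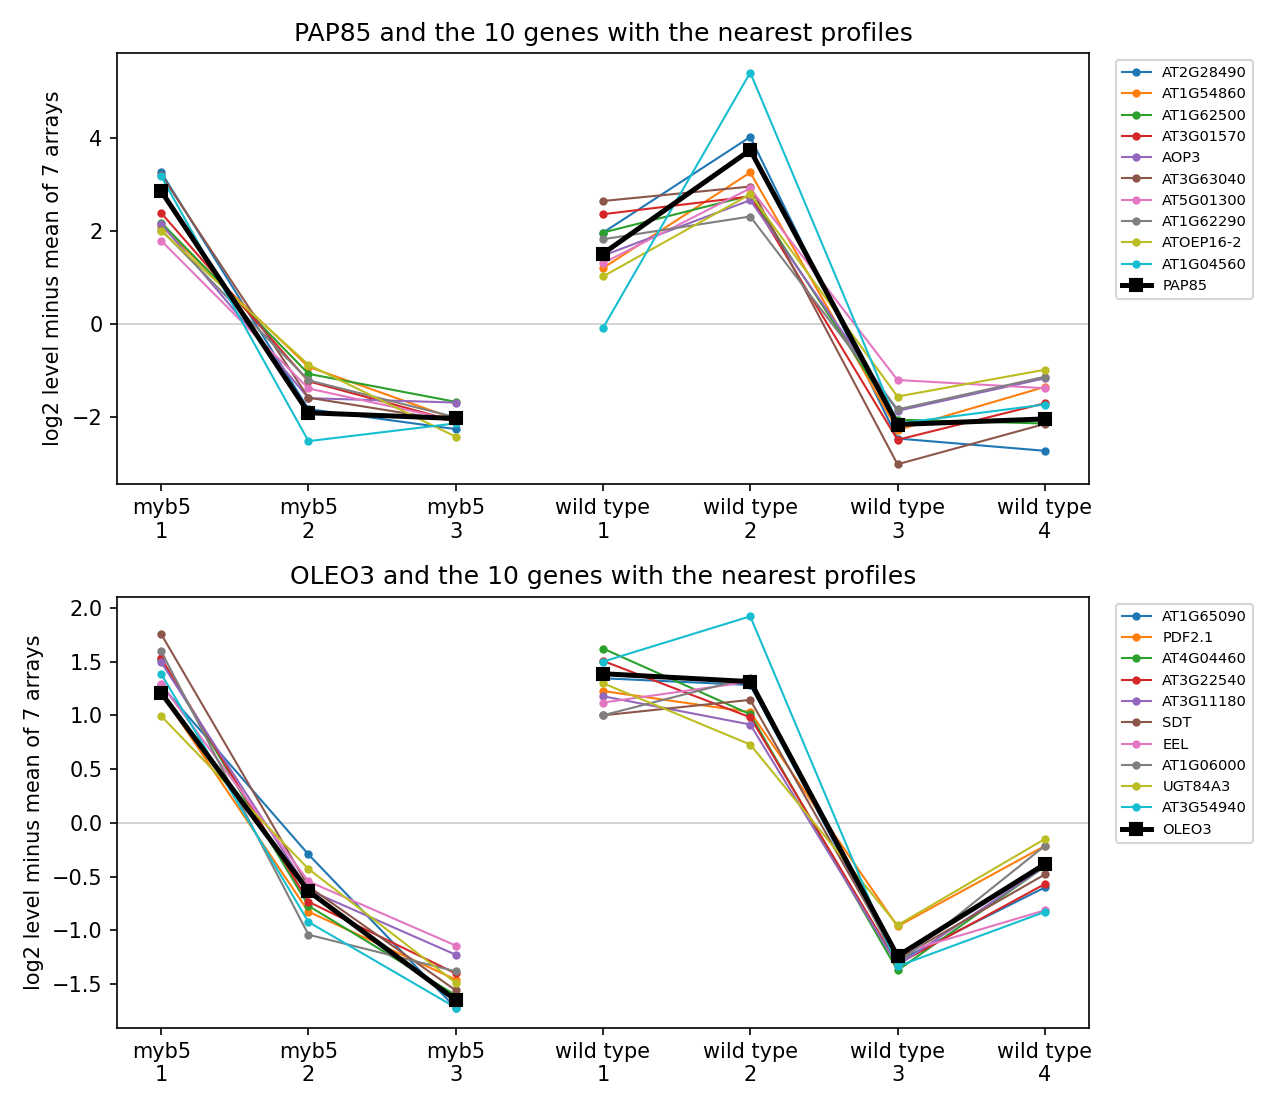
Normalized log2 level minus the mean of 7 arrays (vertical axis) on each array for PAP85 (top) and OLEO3 (bottom) in black and for the 10 genes with the nearest profiles in colour. Lines join the values of a gene within a genotype, and replicates have no order. On the log2 scale 6 of the 10 neighbours of PAP85 span more on the 3 bright arrays than on the other 4, and 10 of the 10 neighbours of OLEO3 span more on the other 4. The neighbours were picked by these same profiles, so the counts describe that choice and test nothing.

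Markers of the other seed tissues were few among the named probe sets. The 4 of 22 seed coat genes measured summed to intensities of 10782 to 17743 in myb5 and 10178 to 18547 in wild type. On the 3 arrays bright for PAP85 and OLEO3 the sum was 10178 to 11559, against 17280 to 18547 on the other 4. DFR and BAN, both enzymes of tannin synthesis in the seed coat, were lowest on those 3 arrays, as were 13.8% of all probe sets. SBT1.7, given as ARA12 in the gene table, was lowest there as deposited, at 5074 to 5586 against 6152 to 7667, but after normalization wild-type replicates 1 and 3 tied. AT3G50990 was not lowest there. ALC, the 1 of 6 fruit wall markers measured, had 49.3 to 70.9 on those arrays and 78.1 to 120 on the others. The endosperm markers AGL62 and IKU2, 2 of 11, and the embryo marker CLV3, 1 of 16, never exceeded 17.8. The stress genes COR15A and PDF1.2, 2 of 6, stayed at or under 21.6. No marker was listed at 0, and the part of these markers in the levels of PAP85 and OLEO3 was not tested.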

How the data were processed

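The deposited values are linear signal intensities, 1 per probe set and array; the sources used here do not name the software behind them. The labels' protocols record amplification by repeated oligo(dT)-primed synthesis and transcription, which favours 3′ ends. From the values, every array had a mean of 150.01 after dropping 2% at each end, so the deposited intensities had been scaled.

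The 64 control probe sets were left out. For the other 22746, log2(intensity + 16) was quantile normalized, since array medians differed by 0.12 (limit 0.1). Differences on this scale understate the change of dim genes. The genotypes were compared with limma 3.58.1 in R 4.3.3 (lmFit and eBayes), with Benjamini-Hochberg adjustment over all 22746 and a threshold of 0.05. The fit was tested on simulated data with independent noise, which lacked the split of the arrays. It recovered 32 of 67 log2 changes of 1, 53 of 67 of 2 and 65 of 66 of 4, with 5 false calls. The simulation cannot show how the fit behaves under that split. The number of arrays limits the precision.

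Names came from the platform annotation, updated through a RefSeq gene table by gene ID: 13513 probe sets name 1 gene, 503 several, and 8730 are unnamed here; 13436 were found in that table. PAP85, OLEO3, the 14 lists (180 genes) and the alternatives were chosen with earlier results of these data known. Genes named are PAP85 and OLEO3, the 10 nearest profiles of each, and up to 4 genes of each list with the largest range. Any other was named after its values were seen. Sequences were not used here, and the planned motif search of promoters was not run. Deviations of same-numbered replicates from their genotype mean correlated at 0.63, -0.30 and 0.55.

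Alternatives were no normalization, median centring, pseudocounts of 1 and 64, leaving out the dimmest 30% or 50% of probe sets, the replicate number as a block, trend and robust settings, array weights, leaving out each array, and fits with and without the 3 arrays that stood apart.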

Additional observations from a re-analysis of the deposited data

Results flagged for a closer look

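The 4 wild-type arrays were searched, for each of 47 named genes, for an array far from the other 3, and 4 genes had one. Chance gives about 1 in 20 for genes not picked by their values, and some of these were. Wild-type replicate 2 stood out for the cruciferin gene AT1G03890, with a normalized log2 level of 10.33 and the rest of its group at 4.21 to 4.98. It also stood out for the LEA gene AT3G17520, with 8.30 and the rest at 4.43 to 4.95. Wild-type replicate 3 was the far array for 2 dim markers. IKU2 had a log2 level of 4.68 there, and its other wild-type levels were 4.26 to 4.33. CLV3 had 4.11 there, below its other wild-type levels of 4.50 to 4.55. For PAP85 and OLEO3 the 4 wild-type arrays lay as 2 high and 2 low. This search cannot find a single far array in such a split, so it says nothing about the spread of either gene.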

How the results depend on the processing

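No alternative called PAP85 or OLEO3 between genotypes (18 for each gene, limma adjusted p 0.69 to 1.00). Directions held in 13 of 18 for PAP85 and 17 of 18 for OLEO3. Leaving out each array gave -2.24 to 0.53 for PAP85 and -1.41 to 0.017 for OLEO3. PAP85 was at 0.13 without myb5 replicate 1 and wild-type replicates 1 and 2, and at 0.24 with those 3 arrays alone; the cause was not tested. The probe sets called, 1 of 22746, became 2 with the dimmest 50% left out, 0 without those 3 arrays, 0 with those alone, and 1 to 2 without single arrays; the fits on part of the arrays have fewer samples. With the replicate number as a block, 0 were called, and the log2 difference was -1.39 for PAP85 and -0.85 for OLEO3 (limma adjusted p = 0.82 and 0.74); the numbers share no stated source, and 1 of 3 same-numbered pairs correlated below 0. The log2 range stayed between 4.58 and 6.88 for PAP85 and between 2.63 and 3.18 for OLEO3. Of the 10 nearest genes, 6 to 10 were found again for PAP85 and 6 to 9 for OLEO3.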
